A study of Mus musculus with 8 samples.

Results

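Ccr7, Fscn1, Cacnb3, Ccl22, Ccl17, Cd40, Cd83, Nudt17 and Socs2 are genes of mature, migratory dendritic cells (DC). They were taken as the rows of a mouse RNA-seq count table whose Entrez gene IDs map to these 9 symbols, which made 9 of 27179 gene IDs. All 9 passed the filter on low counts that left 14238 genes for testing. The RNA came from the spleens of C57BL/6 mice that all carried leukemia and had received panobinostat (LBH589, an inhibitor of histone deacetylases) or vehicle (D5W, dextrose in water) for 2 days. The 4 groups of 2 libraries were sorted conventional DC (cDC) from panobinostat-treated mice, cDC from vehicle-treated mice, plasmacytoid DC (pDC) from panobinostat-treated mice and pDC from vehicle-treated mice. Each library was a biological replicate made from a pool of 3 to 6 mice. The p-values rest on the spread between pools within groups, estimated over all 4 groups together and not only over the groups compared.

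DC that have taken up antigen in a tissue mature on sensing danger or inflammation, stop sampling their surroundings and move to the T cell zones of lymphoid organs. CCR7 is the receptor that steers this movement along the chemokines CCL19 and CCL21, and fascin, the product of Fscn1, bundles actin filaments in the long dendrites of mature cells. Mature DC secrete CCL17 and CCL22, which draw T cells carrying the receptor CCR4, and present CD40, the receptor for CD40 ligand on helper T cells. CD83 is a surface glycoprotein that holds MHC class II and CD86 at the surface of mature DC. pDC are a separate lineage known for producing interferon when they sense viral nucleic acids.

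Libraries held 13124861 to 20657429 counts. A library of pDC from panobinostat-treated mice, replicate 2, stood apart, with counts in 10745 genes against 14927 in its partner and 16109 to 19950 in the other 6 libraries. The replicates of that group correlated at r = 0.80 across genes on the log2 scale of CPM (read counts scaled to the size of the library), against 0.96 to 0.97 in the other groups. The pDC markers matched the labels: 12 pDC marker genes summed to 296 to 340 CPM in cDC from panobinostat-treated mice, 352 to 389 CPM in cDC from vehicle-treated mice, 16880 to 22500 CPM in pDC from panobinostat-treated mice and 14130 to 16060 CPM in pDC from vehicle-treated mice. Of these 12 genes, 11 were called lower in cDC than in pDC under each treatment by edgeR (quasi-likelihood test, p-values adjusted by Benjamini-Hochberg). The cDC markers separated the sorts less cleanly. Sums over 12 markers of all cDC (pan-cDC) were 71550 to 76310 CPM in cDC and 34780 to 59300 CPM in pDC of panobinostat-treated mice, and 50630 to 57590 CPM in cDC and 26240 to 37260 CPM in pDC of vehicle-treated mice, so the panobinostat pDC overlapped the vehicle cDC. Most of each sum was Cd74 and H2-Ab1, whose pDC means were 65.4% to 70.2% and 42.05% to 52.75% of their cDC means. That share was 0.24% to 8.42% for Zbtb46, Id2, Batf3 and Snx22. It was 6.60% to 124% for Flt3, Itgax, Ciita and Irf4, and Jaml and Kmo were higher in pDC than in cDC. Of these 12 genes, edgeR called 6 higher and 2 lower in cDC under panobinostat and 5 higher and 2 lower under vehicle. Of 10 markers of type 1 cDC (cDC1), 6 were called higher in cDC under panobinostat and 7 under vehicle, with 0 lower. The 10 markers of type 2 cDC summed to less in cDC, 1169 to 1397 CPM under panobinostat and 950.3 to 1229 CPM under vehicle, than in pDC, 3016 to 4457 CPM under panobinostat and 2588 to 3173 CPM under vehicle. The single genes were split. In cDC, 3 were called higher and 4 lower under panobinostat, and 2 higher and 4 lower under vehicle. Under each treatment 5 log2 fold changes were above 0 and 5 below. Markers of other cell types were also found. Over 10 macrophage genes the sums were 330 to 572 CPM in cDC from panobinostat-treated mice and 399 to 493 CPM in cDC from vehicle-treated mice, against 0 to 45.6 CPM and 18.7 to 44.9 CPM in pDC of the same treatments. Sums over 14 B cell genes, most of it Ighm, were 763 to 2247 CPM in cDC libraries and 3091 to 3777 CPM in pDC libraries. The part of these cells in the results was not tested.

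The starts of 3 of the genes are shown because Ccl17 and Ccl22 encode the pair of CCR4 ligands, lie 57991 bases apart on chromosome 8 and differed in level per kilobase of exon, and because Fscn1 was among the 3 most abundant of the 9 genes per kilobase in cDC. Each line gives the 250 bases before a RefSeq transcript start, on the plus strand of GRCm38.p6, at chr8:94810203-94810452, chr8:94745434-94745683 and chr5:142960105-142960354 in the order printed. The annotated span of Ccl17 begins further upstream, at 94809380, so its printed bases lie inside that span, before a start that is not the first one. Capitals mark TTAAATA in the chemokine genes and TATAAA, the core of a TATA box, in Fscn1.
Ccl17: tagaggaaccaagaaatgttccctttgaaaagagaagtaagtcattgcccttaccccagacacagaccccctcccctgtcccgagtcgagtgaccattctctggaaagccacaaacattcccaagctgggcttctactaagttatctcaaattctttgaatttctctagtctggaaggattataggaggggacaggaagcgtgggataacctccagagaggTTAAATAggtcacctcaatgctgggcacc
Ccl22: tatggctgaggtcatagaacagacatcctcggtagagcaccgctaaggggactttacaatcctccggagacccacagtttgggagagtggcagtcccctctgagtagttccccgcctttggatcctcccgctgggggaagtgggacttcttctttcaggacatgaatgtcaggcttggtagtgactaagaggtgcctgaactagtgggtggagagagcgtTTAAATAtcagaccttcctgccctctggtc
Fscn1: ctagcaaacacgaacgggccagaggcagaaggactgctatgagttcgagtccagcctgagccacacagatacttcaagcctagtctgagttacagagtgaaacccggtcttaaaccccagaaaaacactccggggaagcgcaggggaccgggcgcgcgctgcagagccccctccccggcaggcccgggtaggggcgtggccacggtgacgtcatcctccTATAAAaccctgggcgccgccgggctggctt
The capitals began 29, 30 and 31 bases before the start site in Ccl17, Ccl22 and Fscn1, on the strand of the gene. RefSeq windows of 300 bases (250 before and 50 after a start) were at hand for 5 of the 9 genes, in 6 windows. The letters TTAAATA stood on the gene's strand in 2.23% of 32851 mouse windows and on either strand in 4.51%, and TATAAA in 8.32% and 13.62%. Both strings were picked after the sequences had been seen. TTAAATA was in 2 of the 6 windows and TATAAA in 1, on either strand. A match is a description of the letters only.

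The level of every one of the 9 genes was higher in both cDC libraries than in both pDC libraries of vehicle-treated mice. Fitted folds ranged from 8.84 for Cd40 to 156 for Cacnb3. Ccr7, Cd83, Cacnb3, Fscn1, Ccl22 and Cd40 passed the test as higher in cDC, which is 6 of 9 genes against 4.71% of all genes tested. Nudt17, Socs2 and Ccl17 did not pass. Complete separation in this direction was seen for 9 of 9 genes and for 35.5% of all genes. The median log2 fold change of cDC over pDC was 5.51 for the 9 genes and -0.02 for all genes. The 9 genes were chosen with earlier results of these data known. Their counts beside the shares of all genes are thus descriptions, here and below, and not a test of an excess. In bulk RNA, fewer cells of a type and less RNA per cell cannot be told apart.

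The trafficking receptor Ccr7 (Entrez 12775; chr11:99144199-99155077) had 884 and 917 CPM in cDC and 17.2 and 29.5 CPM in pDC of vehicle-treated mice. Both cDC libraries were far above both pDC libraries. Ccr7 was 38.6-fold higher in cDC, a log2 fold change of 5.27 ± 0.44 (SE, n = 2 each; edgeR adjusted p = 0.0020), and it passed the test in all 16 alternative fits. Under panobinostat it had 474 and 848 CPM in cDC against 33.5 and 42.6 CPM in pDC. The groups again did not overlap, and Ccr7 was 17.4-fold higher in cDC (log2 fold change 4.12 ± 0.41, edgeR adjusted p = 0.0028).

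Fscn1 (Entrez 14086; chr5:142960355-142973189), whose start is printed above, had 1252 and 960.2 CPM in cDC and 12.2 and 36.6 CPM in pDC of vehicle-treated mice. The lower cDC library was still far above the higher pDC library, and the log2 fold change was 5.51 ± 0.87 (SE, n = 2 each; edgeR adjusted p = 0.015). Under panobinostat Fscn1 had 734 and 774 CPM in cDC against 5.5 and 22.8 CPM in pDC. That separation gave a log2 fold change of 5.75 ± 0.88 (edgeR adjusted p = 0.011). The pDC replicates of either treatment were several-fold apart, while the cDC replicates lay close together.

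Cacnb3 (Entrez 12297; chr15:98628436-98644536) encodes a beta subunit of voltage-gated calcium channels. It had 200.5 and 225.5 CPM in cDC and 1.21 and 1.51 CPM in pDC of vehicle-treated mice. The 156-fold difference (log2 fold change 7.28 ± 1.05, SE, n = 2 each; edgeR adjusted p = 0.011) was the largest fitted fold among the 9 genes in that comparison. Under panobinostat Cacnb3 had 104 and 139.5 CPM in cDC against 3.07 and 24.0 CPM in pDC. Its log2 fold change was 3.19 ± 0.86 and missed the threshold (edgeR adjusted p = 0.0507), but passed with the replicate number as a block (3.5, adjusted p = 0.0434). Without panobinostat pDC replicate 2 the value was 5.35 (adjusted p = 0.00040) and without replicate 1 of that group 2.35 (adjusted p = 0.00066).

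**Figure D1:**
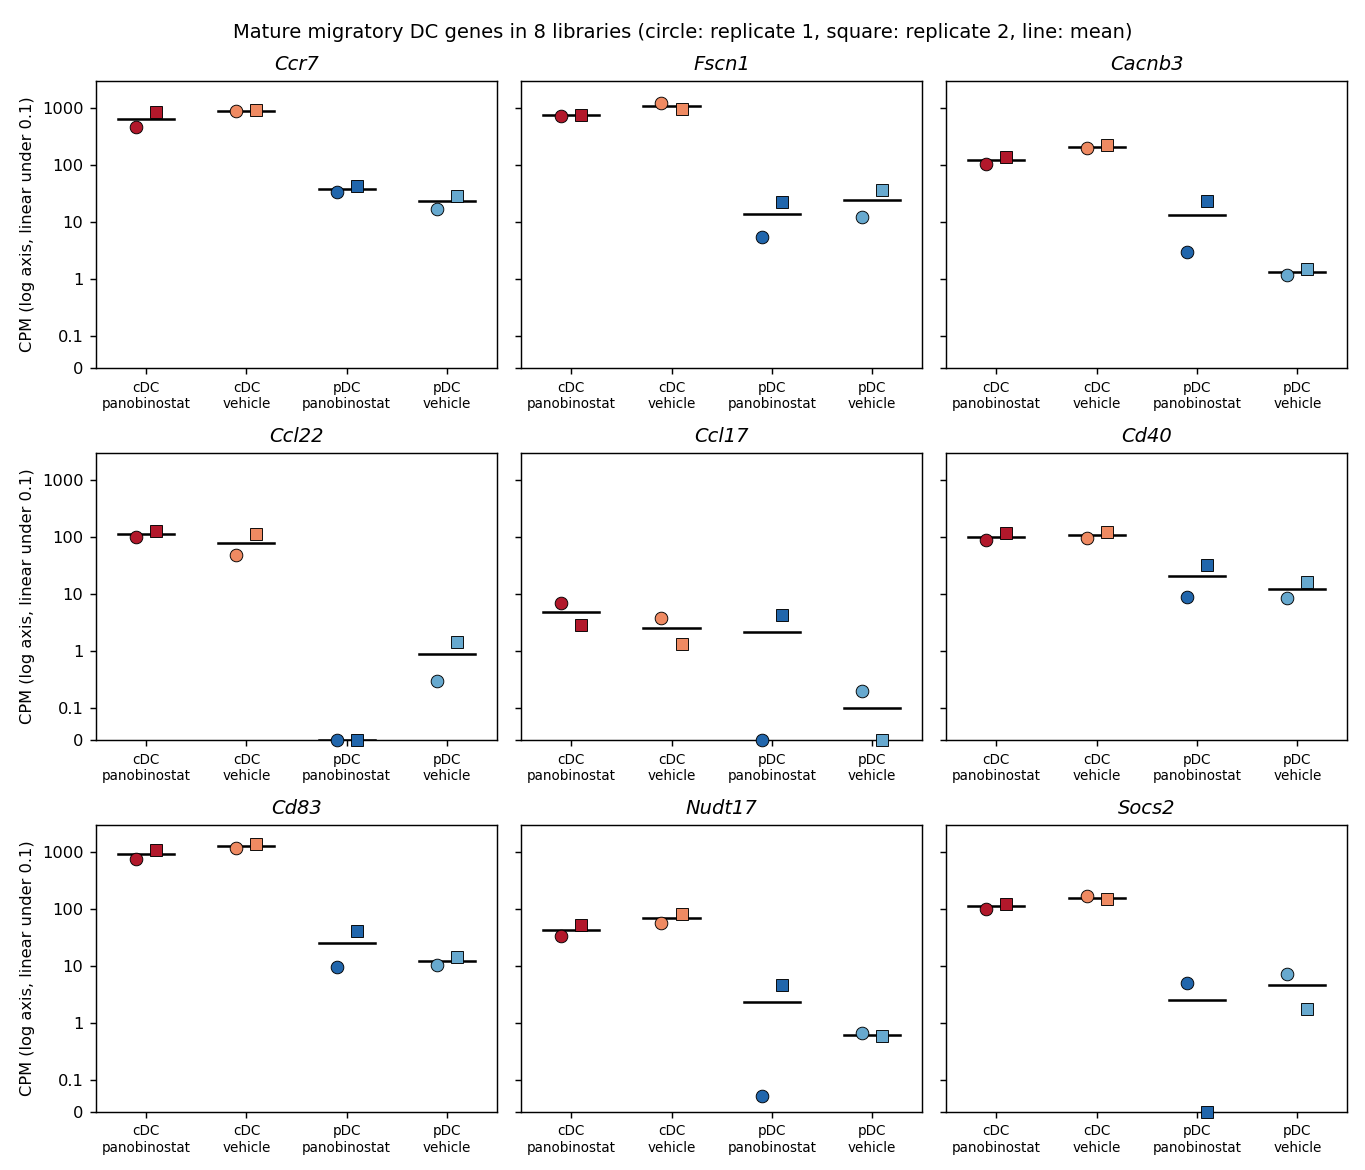
Level of the 9 mature DC genes in each of the 8 libraries, in CPM on a log axis, with cDC left of pDC and panobinostat left of vehicle, points for libraries and bars for group means. cDC libraries lie above pDC libraries for every gene under vehicle; Ccl22 is at 0 in both panobinostat pDC libraries.

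Of the CCR4 ligands, Ccl22 had the higher level per kilobase of exon in cDC, 49.3 CPM per kilobase under panobinostat and 34.5 under vehicle, next to 9.55 under panobinostat and 4.97 under vehicle for Ccl17. Ccl22 (Entrez 20299; chr8:94745684-94751388) had 48.7 and 112 CPM in cDC of vehicle-treated mice and 0.30 and 1.46 CPM in pDC of vehicle-treated mice, which are 6 and 27 counts. It was higher in cDC by 6.50 ± 0.93 on the log2 scale (SE, n = 2 each; edgeR adjusted p = 0.017). Under panobinostat it had 102 and 127 CPM in cDC and 0 counts in both pDC libraries, which is at least 1181-fold higher in cDC when the pDC group is given 3 counts in total as a floor (edgeR adjusted p = 0.0059).

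Ccl17 (Entrez 20295; chr8:94809380-94812038) had few counts, 29 to 145 in the 4 cDC libraries and 0 to 46 in the 4 pDC libraries. Under vehicle it had 3.77 and 1.34 CPM in cDC, which are 81 and 29 counts, against 0.20 and 0 CPM in pDC, which are 4 and 0 counts. The higher count in pDC was thus below the lower count in cDC. The log2 fold change of 4.56 ± 2.39 did not pass (SE, n = 2 each; edgeR adjusted p = 0.32). Under panobinostat Ccl17 had 6.99 and 2.83 CPM in cDC against 0 and 4.27 CPM in pDC. Those groups overlapped, the only overlap between cDC and pDC among the 9 genes, and the log2 fold change was 1.22 ± 2.00 (edgeR adjusted p = 0.71).

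The T cell help receptor Cd40 (Entrez 21939; chr2:165055614-165071654) had the smallest fold of the 9 genes between the cell types under vehicle. It had 96.7 and 121 CPM in cDC against 8.42 and 16.2 CPM in pDC of vehicle-treated mice, a log2 fold change of 3.14 ± 0.67 (SE, n = 2 each; edgeR adjusted p = 0.037). Under panobinostat Cd40 had 87.5 and 117 CPM in cDC against 9.02 and 32.8 CPM in pDC. The groups did not overlap, but the log2 fold change of 2.29 ± 0.65 missed the threshold (edgeR adjusted p = 0.057) and passed with the replicate block (2.49, adjusted p = 0.027).

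Cd83 (Entrez 12522; chr13:43785112-43803133) had the highest mean level per kilobase of the 9 genes in cDC. It had 1191 and 1352 CPM in cDC and 10.4 and 14.4 CPM in pDC of vehicle-treated mice. The 103-fold difference passed (log2 fold change 6.68 ± 0.78, SE, n = 2 each; edgeR adjusted p = 0.0051). Under panobinostat Cd83 had 763 and 1069 CPM in cDC against 9.72 and 41.0 CPM in pDC, again without overlap and 36.4-fold higher (5.18 ± 0.72, edgeR adjusted p = 0.0082).

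Nudt17 (Entrez 78373; chr3:96705892-96708916) encodes a Nudix hydrolase, and Socs2 (Entrez 216233; chr10:95383903-95417321) a suppressor of cytokine signalling that dampens JAK-STAT signals. Nudt17 had 55.8 and 82.2 CPM in cDC against 0.66 and 0.59 CPM in pDC of vehicle-treated mice, and 33.2 and 52.2 CPM in cDC against 0.05 and 4.55 CPM in pDC of panobinostat-treated mice. Its log2 fold changes of 6.77 ± 1.69 under vehicle and 4.25 ± 1.5 under panobinostat missed the threshold (SE, n = 2 each; edgeR adjusted p = 0.059 and 0.099). Both its comparisons were without overlap. The annotated span of Nudt17 shares 179 bases with Pias3 on the other strand, and the strand setting of the counting is not given in the sources used here, so reads in that stretch could belong to either gene.

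Socs2 had 165 and 151 CPM in cDC against 7.36 and 1.73 CPM in pDC of vehicle-treated mice, and 100.3 and 122 CPM in cDC against 4.96 and 0 CPM in pDC of panobinostat-treated mice. The groups did not overlap. The log2 fold changes of 5.12 ± 1.5 under vehicle and 5.41 ± 1.53 under panobinostat also missed the threshold (SE, n = 2 each; edgeR adjusted p = 0.089 and 0.057).

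Under panobinostat, then, Ccr7, Fscn1, Cd83 and Ccl22 passed as higher in cDC, 4 of 9 genes against 10.2% of all genes. The levels of 8 of 9 genes did not overlap, against 38.0% of all genes, and the medians were 4.25 for the 9 genes and 0.18 for all genes. The number of the 9 genes that passed depended on the libraries. Under vehicle it was 2 without either vehicle cDC library, 1 without vehicle pDC replicate 1, 2 without vehicle pDC replicate 2, 4 without either panobinostat cDC library and 9 without either panobinostat pDC library. Under panobinostat it was 3 without panobinostat cDC replicate 1, 2 without replicate 2 of that group, 8 without panobinostat pDC replicate 1, 9 without replicate 2 of that group, and 6 with the replicate block.

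**Figure D2:**
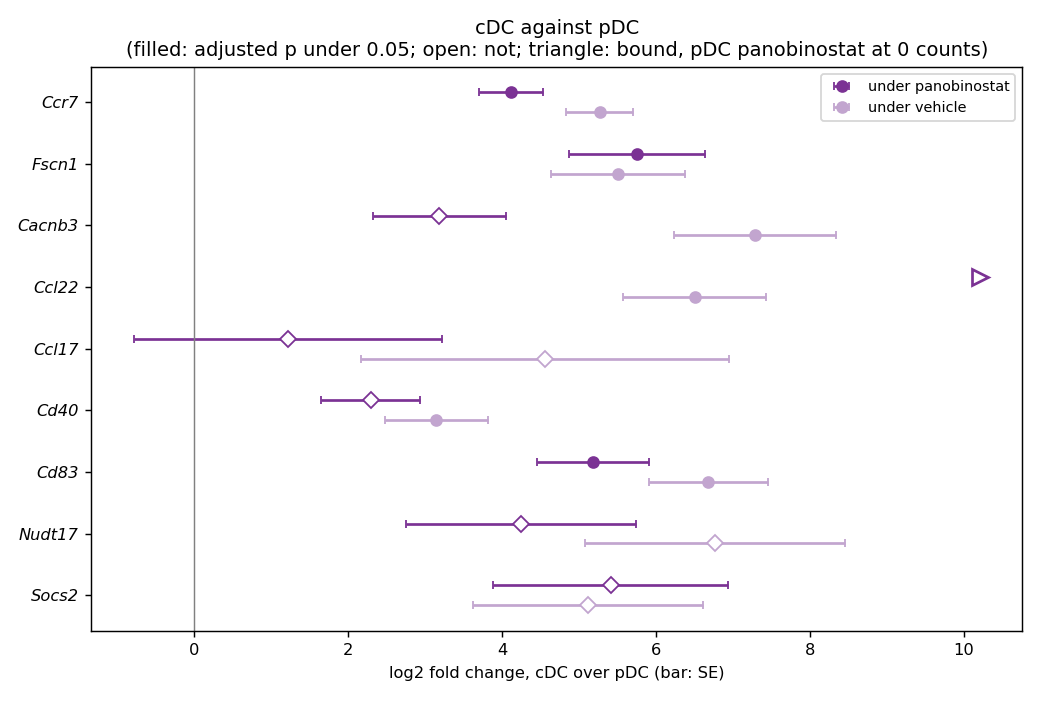
Log2 fold change of cDC over pDC for each of the 9 genes under panobinostat and under vehicle, with standard errors from the fit; filled points passed the edgeR threshold, open points did not, and the triangle is a lower bound for Ccl22. Every point lies above 0, with Ccr7 at 4.12 under panobinostat and 5.27 under vehicle.

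Per kilobase of exon, the scale on which genes can be compared, mean levels in cDC of vehicle-treated mice ran from 494 CPM per kilobase for Cd83, 455 for Ccr7 and 367 for Fscn1, through 53.1 for Cacnb3, 34.5 for Ccl22, 31.9 for Cd40, 30.8 for Nudt17 and 16.6 for Socs2, to 4.97 for Ccl17. The leading 3 genes were the same in cDC of panobinostat-treated mice, at 356 CPM per kilobase for Cd83, 334 for Ccr7 and 250.3 for Fscn1. In pDC the highest mean was that of Ccr7, at 19.2 CPM per kilobase under panobinostat and 11.8 under vehicle. The level of pDC as a percent of that of cDC differed between genes. For Ccr7 it was 5.76% under panobinostat and 2.59% under vehicle, and for Fscn1 1.88% under panobinostat and 2.20% under vehicle. For Cd40 it was 20.5% under panobinostat and 11.3% under vehicle.

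Panobinostat gave no call among the 9 genes in cDC. The levels of 6 genes, Ccr7, Fscn1, Cacnb3, Cd83, Nudt17 and Socs2, were lower in both panobinostat libraries than in both vehicle libraries, yet none of these differences passed edgeR's test, in which 0 of 14238 genes (0.0%) were called. At an unadjusted p under 0.05 there were 206 genes and none of the 9. With the 4 cDC libraries compared alone, edgeR gave 1330 genes at that level and called 0 genes. DESeq2 called 15 genes and limma-voom 0, with none of the 9 in either. Separation below vehicle was seen for 18.8% of all genes, so 6 of 9 stands against that share, and no gene of the 9 was wholly above vehicle (22.2% of all genes).

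Ccr7 averaged 661 ± 264 CPM in cDC of panobinostat-treated mice and 901 ± 23.8 CPM in cDC of vehicle-treated mice (SD, n = 2 each). The fold was 0.73, a log2 fold change of -0.45 ± 0.36 (SE), with a 95% interval of -1.32 to 0.43 and an edgeR adjusted p of 1.0. Its panobinostat replicates were at 53.7% and 92.4% of the vehicle replicate with the same number, so the size of the difference rested mainly on replicate 1.

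Fscn1 averaged 754 ± 28.6 CPM in cDC of panobinostat-treated mice and 1106 ± 206 CPM in cDC of vehicle-treated mice (log2 fold change -0.55 ± 0.71, 95% interval -2.28 to 1.18). Cacnb3 averaged 122 ± 25 CPM under panobinostat and 213 ± 17.7 CPM under vehicle (-0.81 ± 0.79, interval -2.72 to 1.11). Cd83 averaged 916 ± 217 CPM under panobinostat and 1271 ± 114 CPM under vehicle (-0.47 ± 0.61, interval -1.94 to 0.99). These intervals held both a fall below the vehicle level and a gain above it, so no change in cDC was detectable in this fit. Their width rests on a spread estimated over all 8 libraries, among them the panobinostat pDC pair (r = 0.80), and not on the cDC replicates alone.

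Nudt17 and Socs2, the other genes with both panobinostat libraries below both vehicle libraries, had log2 fold changes of -0.69 ± 1.30 and -0.51 ± 1.25 in cDC. Cd40 was at 102 ± 20.8 CPM in cDC of panobinostat-treated mice and 109 ± 17.0 CPM in cDC of vehicle-treated mice, with overlapping libraries and a log2 fold change of -0.09 ± 0.61. The CCR4 ligands had positive values, 0.51 ± 0.72 for Ccl22 and 0.94 ± 1.98 for Ccl17, and their libraries overlapped. The median over the 9 genes was -0.47 against 0.00 over all genes, and 7 of 9 values were below 0 in each of the scalings tried. Sums over 14 B cell markers were 763 to 1090 CPM in cDC of panobinostat-treated mice and 1164 to 2247 CPM in cDC of vehicle-treated mice, none of them at 0. Most of that sum was Ighm, at 475 and 597 CPM under panobinostat and 928 and 1616 CPM under vehicle. Of the 14 genes, 9 had log2 fold changes below 0 and 5 above, and 0 were called. Ms4a1 was at 62.5 and 146 CPM under panobinostat and 25.2 and 136 CPM under vehicle, and Fcrl1 at 92.4 and 84.2 CPM under panobinostat and 57.0 and 57.6 CPM under vehicle. Sums over the 10 cDC1 markers were 4017 to 5084 CPM under panobinostat and 2764 to 3773 CPM under vehicle, and the pan-cDC sums given above did not overlap either. Sums over 10 NK cell markers were 188 to 402 CPM under panobinostat and 138 to 172 CPM under vehicle. All 10 had log2 fold changes above 0 and 0 were called, with Ncr1 at 1.45 and 43.1 CPM under panobinostat and 0.28 and 6.42 CPM under vehicle. The part of these cells in the cDC values was not tested. Scaling by library size alone moved the median of all genes to -0.13 and that of the 9 genes to -0.62.

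In pDC, too, none of the 9 genes passed for panobinostat, in a comparison where edgeR called 13 genes (0.0913%), 2 higher and 11 lower. Scaled by DESeq2's size factors in edgeR, the calls were 1 higher and 1 lower, and by library size 3 higher and 6 lower. At an unadjusted p under 0.05 there were 2119 genes, among them Cacnb3 and Ccl22. DESeq2 called 914 genes including these 2, and limma-voom and the fit with the replicate block called 0 genes. Both panobinostat libraries were above both vehicle libraries for Ccr7 and Cacnb3, 2 of 9 against 15.7% of all genes, and below them for Ccl22, 1 of 9 against 26.5%.

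Ccr7 averaged 38.1 ± 6.49 CPM in pDC of panobinostat-treated mice and 23.4 ± 8.71 CPM in pDC of vehicle-treated mice (SD, n = 2 each). Its log2 fold change was 0.70 ± 0.37 (SE; 95% interval -0.19 to 1.59, edgeR adjusted p = 0.41). Cacnb3 averaged 13.5 ± 14.8 CPM under panobinostat and 1.36 ± 0.21 CPM under vehicle, and most of that difference came from panobinostat replicate 2 (log2 fold change 3.29 ± 0.90, edgeR adjusted p = 0.21). Ccl22 was at 0 counts in both panobinostat libraries, which is at least 9.09-fold lower than in vehicle pDC on the same floor (edgeR adjusted p = 0.20, DESeq2 adjusted p = 0.0082).

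The values of the other genes in pDC had wide errors. Cd83 averaged 25.3 ± 22.1 CPM under panobinostat and 12.4 ± 2.82 CPM under vehicle (log2 fold change 1.02 ± 0.62), and Cd40 20.9 ± 16.8 CPM under panobinostat and 12.3 ± 5.47 CPM under vehicle (0.76 ± 0.62). Fscn1 averaged 14.1 ± 12.2 CPM under panobinostat and 24.4 ± 17.3 CPM under vehicle (-0.80 ± 0.73). Nudt17, Ccl17 and Socs2 had log2 fold changes of 1.83 ± 1.43, 4.28 ± 2.37 and -0.81 ± 1.32, and the libraries overlapped for each of these 6 genes. The median over the 9 genes was 0.76 against -0.14 over all genes, and it was 0.23 by limma-voom.

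These pDC values depended on which panobinostat library was kept. Without replicate 1, edgeR called 8261 genes and 6 of the 9: Cacnb3 (log2 fold change 4.13), Cd83 (1.73), Cd40 (1.42), Nudt17 (2.85) and Ccl17 (5.28) as higher and Socs2, at 0 counts in the remaining panobinostat library, as lower. Without replicate 2, edgeR called 723 genes and none of the 9, and the log2 fold changes were 1.13 for Cacnb3, -0.39 for Cd83, -0.49 for Cd40, -3.54 for Nudt17 and 0.09 for Socs2, while Ccl17 was at 0 counts in the remaining panobinostat library. The median over the 9 genes turned with the library, at 1.42 without replicate 1 and -0.49, with 6 of 9 below 0, without replicate 2. Ccr7 kept a positive value in both, 0.87 without replicate 1 and 0.48 without replicate 2.

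Some cDC genes were also highest in panobinostat pDC replicate 2 among the pDC libraries. Id2, a cDC transcription regulator, had 21.1 and 71.7 CPM in pDC of panobinostat-treated mice and 5.95 and 10.2 CPM in pDC of vehicle-treated mice. The cDC factors Batf3, with 1.49 and 19.0 CPM under panobinostat against 0.86 and 1.41 CPM under vehicle, and Zbtb46, with 4.36 and 19.6 CPM under panobinostat against 2.37 and 8.27 CPM under vehicle, showed the same order. H2-Ab1, Cd74, Jaml, Kmo and Snx22 were also highest in that library, H2-Ab1 with 8539 and 17380 CPM under panobinostat against 5800 and 9062 CPM under vehicle. The remaining pan-cDC genes were not. Both panobinostat libraries were below both vehicle libraries for the receptor Flt3, at 318 and 352 CPM against 536 and 537 CPM, for the integrin Itgax, at 124 and 206 CPM against 222 and 266 CPM, for the MHC class II regulator Ciita, at 111 and 45.4 CPM against 260.5 and 268 CPM, and for the factor Irf4, at 30.8 and 0.28 CPM against 31.1 and 41.7 CPM. Of the 12 pan-cDC genes, 7 had log2 fold changes above 0 and 5 below, and 0 were called. Xcr1, a defining receptor of type 1 cDC, had 3.72 and 0 CPM under panobinostat and 1.11 and 4.60 CPM under vehicle, so it did not follow. As a percent of the cDC level, pDC values of cDC genes differed between treatments in both directions. Under panobinostat and vehicle, Id2 was at 5.67% and 1.28%, Batf3 at 8.42% and 1.13%, and Zbtb46 at 6.21% and 3.66%. Snx22 was at 0.24% and 0.49%, Xcr1 at 0.38% and 0.86%, and Ciita at 6.60% and 30.5%. Ccr7 was at 5.76% and 2.59%. The cDC genes given here were picked after their values were seen. Summed over 10 markers each, NK cell genes spanned 188 to 506 CPM in panobinostat pDC and 24.9 to 47.9 CPM in vehicle pDC, with Eomes and Gzmb at 0 under panobinostat. Nearly all of that sum was Klrk1, at 178 and 487 CPM under panobinostat and 22.9 and 42.8 CPM under vehicle, and 4 of the 10 genes had log2 fold changes below 0. Ncr1, Klrb1c, Klra8, Gzma, Prf1 and Tbx21 were at 0 in panobinostat replicate 2. Sums over 12 T cell markers were 112 to 146 CPM under panobinostat and 46.7 to 64.3 CPM under vehicle, with Cd3e, Bcl11b and Themis at 0 under panobinostat. The largest part was Cd28, at 70.45 and 74.3 CPM under panobinostat and 32.5 and 19.2 CPM under vehicle. Of the 10 T cell genes tested, 6 had log2 fold changes above 0 and 4 below, and 0 were called. Sums over 14 B cell markers were 3401 to 3777 CPM under panobinostat and 3091 to 3124 CPM under vehicle. The 10 cDC1 markers spanned 528 to 1004 CPM under panobinostat and 471 to 684 CPM under vehicle, with Gcsam at 0 under panobinostat. The part of any of these in the pDC values was not tested.

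**Figure D3:**
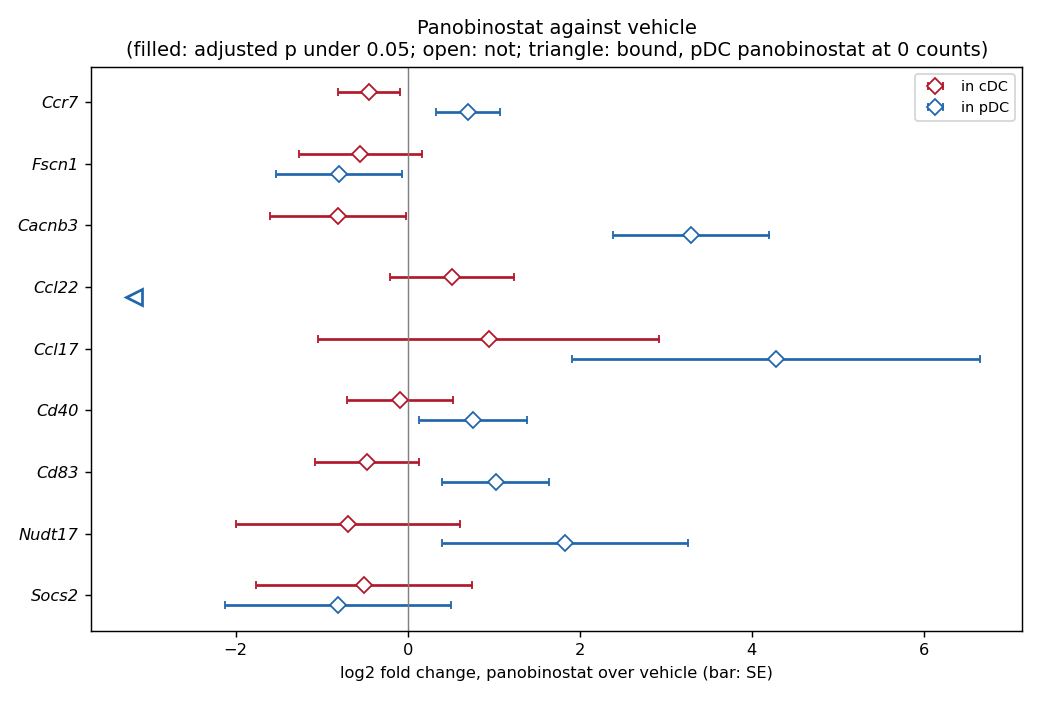
Log2 fold change of panobinostat over vehicle for each of the 9 genes in cDC and in pDC, with standard errors; all points are open because none passed the edgeR threshold, and the triangle is the bound for Ccl22 in pDC. Ccr7 lies at -0.45 in cDC and 0.70 in pDC, and Cacnb3 at -0.81 in cDC and 3.29 in pDC.

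The panobinostat effect was then compared between the cell types as a difference, cDC minus pDC. None of the 9 genes passed, and edgeR called 1 gene in all (0.00702%). At an unadjusted p under 0.05 there were 1107 genes, with Cacnb3 and Ccl22 among them, DESeq2 called 290 genes including these 2, and limma-voom and the replicate block called 0 genes. Ccr7 and Cacnb3 were below vehicle in cDC and above it in pDC without overlap in either, which held for 2.47% of all genes. The difference was -1.15 ± 0.52 for Ccr7 on the log2 scale (edgeR adjusted p = 0.68) and -4.10 ± 1.19 for Cacnb3 (edgeR adjusted p = 0.44, DESeq2 -4.19 with adjusted p = 0.039). Without panobinostat pDC replicate 1 edgeR called 4 of the 9 genes, Cacnb3, Cd83, Nudt17 and Socs2, and without any other library it called 0.

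A list of 46 other genes of mature DC, all of which passed the filter, was also chosen with earlier results of these data known. Its counts beside the shares of all genes are descriptions only. Of the 46, 23 were called higher and 1 lower in cDC than in pDC under vehicle (4.71% and 5.01% of all genes). The median log2 fold change was 3.40, or 3.12 with genes at 0 in pDC set to their bound. Tbc1d4, a Rab GTPase-activating protein, had 796 and 717 CPM in cDC and 11.4 and 14.9 CPM in pDC of vehicle-treated mice (log2 fold change 5.85 ± 0.29, edgeR adjusted p = 0.00071). Marcks, an actin-regulating substrate of protein kinase C, was higher by 2.82 ± 0.23 (edgeR adjusted p = 0.0020). Il12b, the shared chain of interleukin-12 and interleukin-23, was higher by 7.77 ± 0.71 (edgeR adjusted p = 0.0027), and the class Ib MHC gene H2-M2 by 8.88 ± 0.76 (edgeR adjusted p = 0.0038).

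Under panobinostat 21 of the 46 genes were called higher and 2 lower (10.2% and 7.76% of all genes), with a median of 3.15. Tbc1d4 was higher in cDC by 4.47 ± 0.27 (edgeR adjusted p = 0.0010) and Nfkb2, the NF-kappaB precursor of the non-canonical pathway, by 3.11 ± 0.25 (edgeR adjusted p = 0.0014). Il12b passed as well, with 127 and 232 CPM in cDC against 0 and 1 counts in pDC. Cd200, an inhibitory ligand, was lower, with 35.5 and 41.9 CPM in cDC against 183 and 194 CPM in pDC (-2.28 ± 0.22, edgeR adjusted p = 0.0023). Without either panobinostat pDC library 36 of the 46 were called higher under vehicle, and without any other library 5 to 8. Under panobinostat the count was 37 without panobinostat pDC replicate 1, 34 without replicate 2 of that group, 6 without either panobinostat cDC library, 11 without either vehicle cDC library and 17 to 19 without a vehicle pDC library.

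For panobinostat edgeR called none of the 46 in cDC or pDC, with 2 and 10 at an unadjusted p under 0.05. DESeq2 called 0 in cDC and 5 in pDC, and limma-voom 0 in each. Without panobinostat pDC replicate 1 edgeR called 8 higher and 11 lower in pDC, without replicate 2 of that group 0 higher and 6 lower, and with no filter 1 lower. The medians were -0.29 in cDC, with 30 of 46 below 0, and -0.02 in pDC, the pDC median being -0.37 without panobinostat pDC replicate 2. Nfkb2 had the smallest p of the list in pDC, with 27.2 and 29.6 CPM in pDC of panobinostat-treated mice and 104 and 144 CPM in pDC of vehicle-treated mice (log2 fold change -2.13 ± 0.24). It missed the threshold (edgeR adjusted p = 0.065). Its libraries did not overlap, and the panobinostat replicates lay close together.

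**Figure D4:**
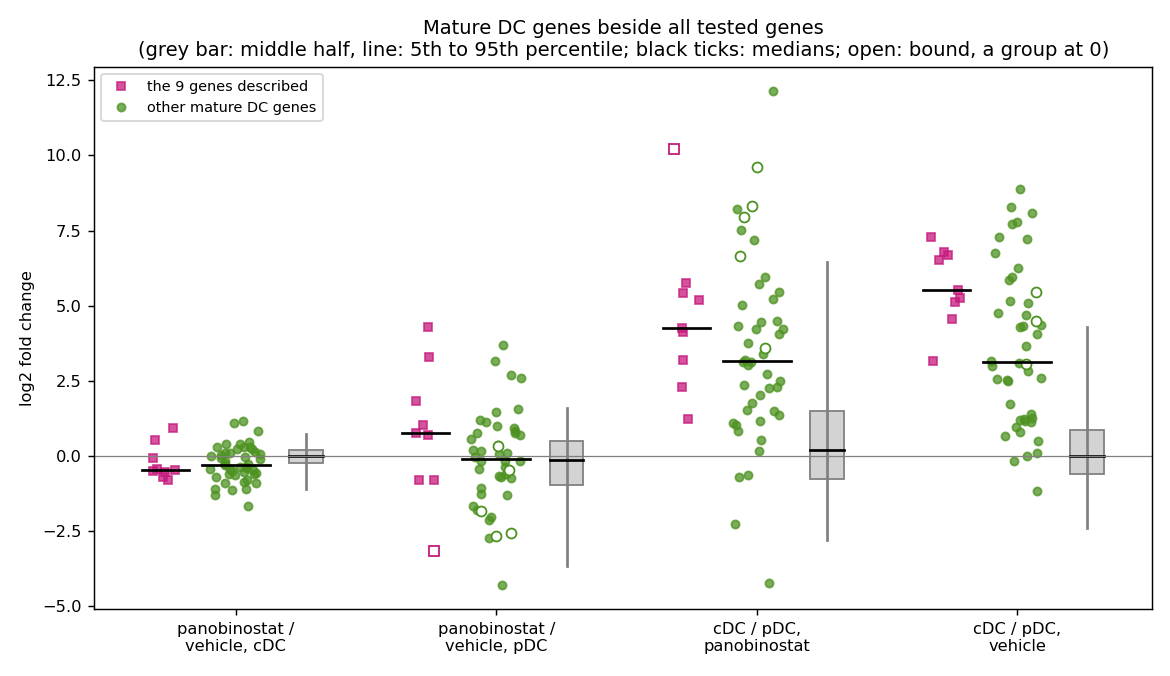
Log2 fold changes in the comparisons of treatment and cell type, 1 square per gene for the 9 genes and 1 circle for each of 46 other mature DC genes, beside a grey bar for the middle of all tested genes; open markers are values set to a bound. The 9 genes and the 46 other mature DC genes lie mostly above 0 for cDC over pDC, with medians of 5.51 and 3.12 under vehicle. For panobinostat over vehicle in cDC most lie below 0, with medians of -0.47 and -0.29 against 0.00 for all tested genes, and none was called.

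The genes listed for CD40 signalling had medians nearer to 0 than the 9 genes in cDC over pDC. That list did not hold Relb, Traf1, Nfkb2 and Birc3, which stood among the 46 other mature DC genes. In cDC over pDC their log2 fold changes were 4.05, 3.10, 1.26 and 0.50 under vehicle. Under panobinostat they were 4.32, 3.01, 3.11 and 0.52, so the medians depend on how genes were split between the lists. Of 14 tested genes of CD40 signalling (15 listed), 2 were called higher in cDC and 0 lower under vehicle, the ubiquitin ligase Birc2 (1.06 ± 0.18, edgeR adjusted p = 0.018) and the adaptor Traf2 (0.87 ± 0.19, edgeR adjusted p = 0.039), with a median of 0.77. Over all genes, 4.71% were called higher. Under panobinostat 5 were called higher and 0 lower, Birc2, Traf2, Nfkb1, Traf3 and Rel, against 10.2% of all genes called higher, with a median of 0.75. Traf3, an adaptor that restrains the non-canonical pathway, had 33.9 and 34.3 CPM in cDC against 2.33 and 8.55 CPM in pDC of panobinostat-treated mice (2.66 ± 0.64, edgeR adjusted p = 0.037). With 1 cDC or vehicle pDC library left out, 0 of the 14 were called under vehicle and 0 to 1 under panobinostat, and without a panobinostat pDC library 8 to 11 were called higher. For panobinostat edgeR, DESeq2 and limma-voom called none of the 14 in cDC or pDC, with 1 and 4 at an unadjusted edgeR p under 0.05. Without panobinostat pDC replicate 1 edgeR called 2 of them higher and 6 lower in pDC, and without replicate 2 of that group 0 higher and 3 lower.

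Of 24 tested genes of the CCR7 and CCR4 ligand axes (27 listed), 1 was called higher and 2 lower in cDC under vehicle, and 3 higher and 2 lower under panobinostat. Of all genes, 4.71% were called higher and 5.01% lower under vehicle, and 10.2% and 7.76% under panobinostat, so these shares of the 24 were near those of all genes. Grk3, a kinase that desensitises G protein-coupled receptors, was higher by 3.03 ± 0.33 under panobinostat (edgeR adjusted p = 0.0036) and 2.33 ± 0.32 under vehicle (edgeR adjusted p = 0.0094). Rac2, a GTPase of leukocyte movement, was lower in cDC, with log2 fold changes of -1.95 ± 0.21 under panobinostat and -2.04 ± 0.21 under vehicle. St8sia4, a polysialyltransferase that modifies CCR7, was lower too, with -2.21 ± 0.24 under panobinostat and -2.13 ± 0.24 under vehicle (edgeR adjusted p = 0.0037 to 0.0048 for these 4 values). The count of calls was 1 to 3 under vehicle and 2 to 5 under panobinostat when 1 cDC or vehicle pDC library was left out, and 13 to 16 without 1 panobinostat pDC library. Messages for the CCR7 ligands were scarce, at most 6.00 CPM for Ccl19 and 1.78 CPM for Ccl21a in any library, and Ccr4 reached at most 0.14 CPM. For panobinostat edgeR, DESeq2 and limma-voom called none of the 24 in cDC or pDC, with 0 and 5 at an unadjusted edgeR p under 0.05. In pDC edgeR called 4 higher and 10 lower without panobinostat pDC replicate 1 and 0 without replicate 2 of that group.

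Among relatives of the 9 genes by gene family, 15 of 17 listed were tested, and edgeR called 0 higher and 1 lower in cDC under each treatment, next to 7.76% of all genes called lower under panobinostat and 5.01% under vehicle. At an unadjusted p under 0.05 there were 5 under panobinostat and 1 under vehicle. DESeq2 called 2 higher and 3 lower under panobinostat and 2 higher and 1 lower under vehicle. The gene called lower by edgeR was Nudt19, a Nudix hydrolase like Nudt17, which had log2 fold changes of -2.52 ± 0.45 under panobinostat (edgeR adjusted p = 0.017) and -2.12 ± 0.44 under vehicle (edgeR adjusted p = 0.035). The vehicle call was lost without any 1 cDC or vehicle pDC library. The median of the 15 was -0.13 under panobinostat and -0.23 under vehicle, and its sign turned in 3 of the alternatives for each, such as 0.75 by limma-voom under panobinostat. For panobinostat against vehicle, edgeR, DESeq2 and limma-voom called none of the 15, with 0 in cDC and 1 in pDC at an unadjusted edgeR p under 0.05. Without panobinostat pDC replicate 1 edgeR called 4 higher and 8 lower in pDC, and without replicate 2 of that group 0.

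Across the 8 libraries, Pde4b, Tbc1d4, Poglut1 and Cd22 were among the genes whose log2 CPM were most like that of Ccr7, out of 8286 genes with a mean of at least 3, with Pearson r of 0.99 for each. Those most like Fscn1 were Relb, Traf1, Coro1b, Sat1 and Set, with r between 0.988 and 0.995. Relb, an NF-kappaB factor, averaged 347 CPM in cDC of panobinostat-treated mice, 475 CPM in cDC of vehicle-treated mice, 17.5 CPM in pDC of panobinostat-treated mice and 28.8 CPM in pDC of vehicle-treated mice. These correlations describe 8 libraries that fall into cDC and pDC. A steady difference in the same direction between the 2 cell types is thus enough for a high r. Socs2, also higher in cDC but uneven between the pDC libraries, had r of 0.82 with Ccr7 and 0.80 with Fscn1.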

How the data were processed

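RNA-seq counts were taken for 8 libraries in 4 groups of 2, grouped by their titles. Titles name pDC and cDC, although the extraction protocol mentions sorting of leukemia cells; the titles were followed. Per the submitters' processing notes, reads were handled with bcl2fastq (2.17.1.14), FastQC (0.11.6), cutadapt (2.1), HISAT2 (2.1.0), featureCounts from Subread (2.0.0) and limma, on mm10. The deposited values are whole-number read counts per Entrez gene ID, not normalized. How strand and multiply aligned reads were treated, and the annotation, is not given in the sources used here. Of the 27179 IDs, 25275 (93.0%) matched a RefSeq symbol, and coordinates are from RefSeq GRCm38.p6.

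Tests used R (4.3.3) and edgeR (4.0.16). filterByExpr (minimum count 10, minimum total 15) kept 14238 genes, scaled by TMM. All 8 libraries were fitted with 1 coefficient per group (4 residual and 2.32 prior degrees of freedom), and 5 contrasts were tested by quasi-likelihood F tests, with p-values adjusted over all genes by Benjamini-Hochberg and a threshold of 0.05. CPM used TMM-scaled library sizes. CPM per kilobase divided this by the GENCODE exon length. Standard errors and 95% intervals came from the quasi-likelihood statistic. A group at 0 was given a floor of 3 counts, which covers counting error only, since no molecular identifiers are recorded. Alternatives were RLE, upper quartile and library size scaling, no filter, DESeq2 (1.42.0), voom in limma (3.58.1), a replicate block, the 4 libraries compared alone, and leaving out each library. Same-numbered libraries deviated together in all 6 pairs of groups (r = 0.146 to 0.489). The replicate block therefore took the numbers to pair them, while the main fit and the other alternatives left this pairing out. The code was tested on simulated counts.

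The 9 genes and all lists were chosen with earlier results of these data known. Named were the 9 genes, at most 4 genes with the smallest p per list and comparison, the 5 genes most like Ccr7 and Fscn1 (1 is not reported here), and leading markers; Id2, Batf3, Zbtb46, Xcr1 and genes at 0 were picked after their values were seen.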

Additional observations from a re-analysis of the deposited data

Results flagged for a closer look

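Ccr7 and Cacnb3 drew attention because both panobinostat libraries lay below both vehicle libraries in cDC and above both in pDC. On the log2 scale, the panobinostat effect in cDC minus that in pDC was -1.15 ± 0.52 for Ccr7 and -4.10 ± 1.19 for Cacnb3 (SE). The difference itself did not pass edgeR's quasi-likelihood test for either gene (adjusted p = 0.68 and 0.44), and 2.47% of all genes showed the same opposite separation. Leaving out panobinostat pDC replicate 1 gave -1.31 for Ccr7 and -4.94 for Cacnb3, and leaving out panobinostat pDC replicate 2 gave -0.94 and -1.96.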

How the results depend on the processing

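Of 711 values of the 9 genes under alternatives, 613 kept their direction and side of the threshold, 26 lost a call, 55 gained one and 17 changed sign. None of the 288 cell type values changed sign. The sign changes were as follows, on the log2 scale. For panobinostat in cDC, Cd40 was 0.10 without panobinostat cDC replicate 1 and 0.08 without vehicle cDC replicate 2. For panobinostat in pDC, Fscn1 was 0.17 without vehicle pDC replicate 2, Socs2 0.58 without vehicle pDC replicate 1, and Nudt17 -0.04 by limma-voom. Without panobinostat pDC replicate 2, Cd40 was -0.49, Cd83 -0.39, Nudt17 -3.54, Socs2 0.09 and Ccl17, with 0 counts left in that group, -4.13. For the difference of effects (cDC minus pDC), Fscn1 was -0.46 without panobinostat pDC replicate 1 and -0.75 without vehicle pDC replicate 2, Socs2 -1.09 without vehicle pDC replicate 1, and without panobinostat pDC replicate 2 the values were 5.05 for Ccl17, 0.38 for Cd40, 2.82 for Nudt17 and -0.62 for Socs2. With 1 library left out, these values ran from -0.31 to 0.10 for Cd40 in cDC. In pDC they ran from -2.19 to 0.17 for Fscn1, -4.13 to 8.32 for Ccl17, -0.49 to 1.42 for Cd40, -0.39 to 1.73 for Cd83, -3.54 to 2.85 for Nudt17 and -9.42 to 0.58 for Socs2. For the difference they ran from -0.75 to 1.62 for Fscn1, -7.38 to 5.05 for Ccl17, -1.51 to 0.38 for Cd40, -3.54 to 2.82 for Nudt17 and -1.09 to 8.92 for Socs2. Values of Ccl17 and Socs2 with 0 counts left in a group depend on the prior count of the fit. The cause was not tested.

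Counts of genes called moved more. For panobinostat in cDC (0 genes), DESeq2 called 15. For panobinostat in pDC (13 genes), RLE scaling gave 2, upper quartile scaling 5, no filter 68, DESeq2 914, limma-voom 0 and the 4 libraries alone 0, and leaving out 1 library gave 0 to 8261. Of the 9 genes, DESeq2 called 2 there and leaving out 1 library 0 to 6. For the difference of effects (1 gene), RLE and library size scaling and limma-voom gave 0, no filter 5, DESeq2 290 and leaving out 1 library 0 to 6507, and of the 9 genes DESeq2 called 2 and leaving out 1 library 0 to 4. For cDC over pDC under vehicle (1385 genes), DESeq2 called 2880, the 4 libraries alone 4435 and leaving out 1 library 289 to 5523, with 1 to 9 of the 9 genes. Under panobinostat (2557 genes), DESeq2 called 4495, the 4 libraries alone 162 and leaving out 1 library 354 to 9804. There the 9 genes had 8 calls with no filter, by DESeq2 and by limma-voom, 2 with the 4 libraries alone and 2 to 9 with 1 library left out.

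With the replicate block, which pairs libraries by number, edgeR called 0 genes for panobinostat in pDC and 0 for the difference of effects, 1241 for cDC over pDC under vehicle and 2302 under panobinostat. Among the 9 genes it added the calls of Cacnb3 and Cd40 under panobinostat (6 in place of 4) and changed no other. Each group held 2 libraries, and the panobinostat pDC libraries were the least alike, at r = 0.80.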

Other observations

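Ligands that stimulate or restrain T cells stood among the 46 other mature DC genes; those named here were chosen after their values were seen. Cd86, a ligand of CD28, had 253 and 369 CPM in cDC against 12.9 and 59.5 CPM in pDC of panobinostat-treated mice, and 206 and 305 CPM in cDC against 13 and 13.1 CPM in pDC of vehicle-treated mice. It passed edgeR's test in both comparisons, at log2 fold changes of 3.11 ± 0.70 under panobinostat and 4.29 ± 0.74 under vehicle (adjusted p = 0.032 and 0.020). Pdcd1lg2, a ligand of the inhibitory receptor PD-1, had 106 and 88.1 CPM in cDC against 0.94 and 0 CPM in pDC of panobinostat-treated mice, and 54.7 and 32.8 CPM in cDC against 1.61 and 1.73 CPM in pDC of vehicle-treated mice. It was called higher in cDC under each treatment (edgeR adjusted p = 0.013 and 0.045). The other PD-1 ligand gene, Cd274, had 97.7 and 75.5 CPM in cDC against 15.7 and 14.9 CPM in pDC of vehicle-treated mice, and its log2 fold change of 2.50 ± 1.51 did not pass (edgeR adjusted p = 0.40).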
